A study of Mus musculus with 13 samples.

Results

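Troy positive chief cells were compared with Troy positive parietal cells of the mouse gastric corpus, the acid-secreting main part of the stomach, on 5 of the 13 arrays of the series. The members are the arrays whose titles name these cells, 3 of chief cells (a, b and c) and 2 of parietal cells (a and b). Troy is the product of Tnfrsf19 and belongs to the TNF receptor superfamily. An EGFP-ires-CreERT2 cassette sits at the transcriptional start of Tnfrsf19 in these mice (Troy-EGFP-ires-CreERT2), so that the gene's own regulatory sequences drive the green reporter, and both sorted groups carry it. About 100000 sorted cells from glands of 10 mice went onto each array, so an array is a pool of animals, and the labels give no age, sex or strain. Whole corpus glands, 2 arrays, were hybridised as the reference of the same experiment, and 6 arrays of organoids entered 1 alternative fit. A protocol text in the labels speaks of intestines, while the other labels give gastric corpus, which is followed here.

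Chief cells lie at the base of the corpus glands and make pepsinogens, intrinsic factor and other digestive proteins, which they store in granules and release on stimulation. Parietal cells pump protons into deep apical canaliculi with the H+/K+-ATPase, a process that uses much ATP, and they are among the cells richest in mitochondria. Histamine, acetylcholine and gastrin drive secretion in the gland and somatostatin restrains it, each through its own receptors.

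Every value is a log2 intensity, on which a step of 1 is a change by a factor of 2. The medians of the 5 sorted arrays lay between 5.15 and 5.30, and a level below them is not shown to exceed background, which leaves the size of a difference from such a level unsettled. Of the genes with a size given below, Tgfbr3, Il6ra, Edn1, Fbp2, Elovl5, Maff and Top2a were below the medians on both parietal arrays. In the other direction Esrrb, Rab11fip5, Cckbr, Azgp1, Fgf1 and Wnt11 were below the median of chief b on that array. Minar1 and Slc38a4 were below the medians on chief a as well as chief b. Levels are given in the order chief a, b and c against parietal a and b. A difference is chief minus parietal with the standard error (SE) of a limma fit over 18820 genes and 7 arrays (3 chief, 2 parietal, 2 glands). Levels are compared between arrays and not between genes, because probesets differ in brightness. The number of arrays limits the precision, and the labels do not say more about how the pools of 1 group differ.

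The defining markers separated the 2 cell types in part. Pga5, a pepsinogen, was 10.47, 10.79 and 8.90 against 7.22 and 7.25, and whole glands were at 9.78 and 9.27. Cblif, intrinsic factor, was 13.04, 13.23 and 12.74 against 12.25 and 12.06, so its RNA was also bright on the parietal arrays. Atp4b, the beta subunit of the proton pump, was 13.09, 12.65 and 13.28 against 13.22 and 13.29 and overlapped between the groups. Hrh2, the histamine H2 receptor, was 6.97, 6.29 and 8.44 against 9.01 and 8.66, lower on each chief array than on both parietal arrays. The log2 difference was 2.82 (SE 0.51) for Pga5, 0.85 (SE 0.30) for Cblif, -0.25 (SE 0.22) for Atp4b and -1.60 (SE 0.54) for Hrh2. Tnfrsf19 itself, the gene behind the sort, was 8.53, 7.43 and 7.96 against 8.71 and 8.32 with glands at 5.40 and 4.92, so it overlapped between the sorted groups and each sorted array lay above both gland arrays.

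Over the 8 chief cell markers the mean level was 12.36, 12.44 and 11.70 against 11.07 and 10.94, and over the 14 parietal markers it was 10.43, 9.56 and 10.94 against 11.29 and 11.13. By these means each chief array was on the labelled side of both lists, and chief c was the nearest to the parietal arrays on both. Over the parietal markers chief c was only 0.27 below the parietal mean. Without overlap 9 of the 14 were below parietal (64.3%, against 19.2% of all genes), while Atp4a, Atp4b, Kcne2, Slc9a4 and Esrrg overlapped. All 8 chief markers were above parietal without overlap (100%, against 10.9%), some by narrow gaps. Across all 35556 probesets chief c correlated at 0.979 and 0.982 with parietal a and b and at 0.950 and 0.961 with chief a and b, while parietal a and b correlated at 0.985 with each other. Chief a and b correlated at 0.953 with each other, and chief a at 0.959 and 0.951 with parietal a and b, so chief a was also closer to parietal a than to chief b. Closest to chief a were the 2 gland arrays, at 0.978 and 0.966. Chief b correlated at 0.943 and 0.944 with the parietal arrays. These correlations are across probesets of single arrays, which are not independent replicates, and are given as a description. Markers of other cells also moved with single arrays. The mean of 9 pit cell markers was 11.64 on chief a and between 10.02 and 10.38 on the other sorted arrays, with Tff1 at 12.42, 9.66 and 10.36 against 10.48 and 10.83. The mean of 12 markers of squamous epithelium was 7.54 on chief b and between 4.18 and 4.47 on the others, with Krt5 at 6.37, 11.85 and 4.25 against 4.77 and 4.55. The 6 mucous neck cell markers had means of 10.58, 10.67 and 9.80 against 9.20 and 9.02. Enteroendocrine markers had means of 6.60, 6.30 and 5.99 against 6.01 and 6.14, and tuft cell markers lay between 4.56 and 4.91. Of 11 leukocyte, 10 stromal, 8 endothelial and 2 erythrocyte markers, 0 lay above the array median on all 5 arrays, although stromal Dcn was 6.22, 8.47 and 4.58 against 4.37 and 4.54. In bulk samples, fewer cells of a type and less RNA per cell cannot be told apart, and the part of these other cells in the differences was not tested.

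With all 3 chief arrays, 0 genes were higher (0%) and 0 were lower (0%) in chief cells at a limma adjusted p under 0.05, where the smallest adjusted p was 0.348. At an unadjusted p under 0.05 the counts were 1099 higher (5.84%) and 1180 lower (6.27%). The 3 chief and 2 parietal arrays did not overlap for 2049 genes with chief above parietal (10.9%) and for 3622 genes with parietal above chief (19.2%). Left without chief c, limma called 909 genes higher (4.83%) and 409 lower (2.17%), and leaving out any other array in turn gave 0 in each direction. A fit over all 13 arrays called 103 higher (0.547%) and 77 lower (0.409%). A gene is said to have risen or fallen below where it passed limma's threshold without chief c. That is a statement about 2 chief pools against 2 parietal pools, and the values of chief c are printed beside it. Chief c is the chief array nearest to the parietal arrays, and no other single array gave calls when left out. The adjusted p-values of the fit without it therefore do not hold at their nominal level and serve to rank genes. Genes with the widest gaps, the largest differences and up to 3 members of each list were named by rule, and the others were picked after their values were seen, mainly to name every member behind a small count. The median difference over all genes was -0.05, and -0.08 without chief c. The shares of all genes against which the counts of a list are read below are thus 10.9% above and 19.2% below parietal without overlap, and 4.83% risen and 2.17% fallen without chief c.

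For the genes that passed without chief c, chief c can be placed as an array that did not choose them. Over the 909 higher genes the median difference from the parietal mean was 1.52 for chief a and b and 0.37 for chief c, and the median position of chief c was 24.7% of the way from the parietal mean to the mean of chief a and b (quartiles 11.7% and 35.8%). Over the 409 lower genes the medians were -1.32 and -0.40, at 29.8% of the way (quartiles 18.0% and 43.6%). Whole glands lay on the chief side of the parietal mean for 834 of the 909 higher and 404 of the 409 lower genes. Their median differences were 1.13 and -1.02, so a risen or fallen gene is not shown to be particular to the sorted chief cells. All these differences use the same parietal arrays, so they are set side by side as a description.

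**Figure D1:**
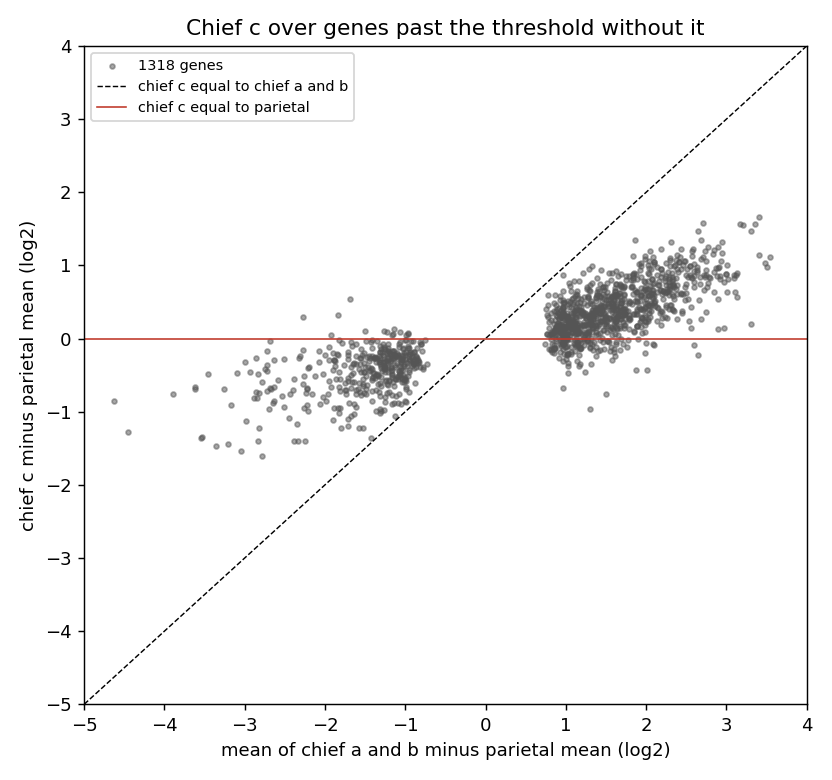
Each point is 1 of the 1318 genes past limma's threshold without chief c. The x axis is the mean of chief a and b minus the parietal mean and the y axis is chief c minus the same parietal mean, both in log2 units. Most points lie between the red line (chief c equal to parietal) and the dashed line (chief c equal to chief a and b) and the median positions are 24.7% and 29.8% of the way to chief a and b.

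The widest gaps with chief above parietal belonged to genes of quite different kinds. They were ranked by the lowest chief array minus the highest parietal array, so the absence of overlap is how they were chosen. Pga5 led. Cyp2c23, a cytochrome P450 of the arachidonic acid epoxygenase family, was 8.53, 8.74 and 6.98 against 5.41 and 5.45, a difference of 2.65 (SE 0.47). Ifitm3, an interferon-induced membrane protein, was 9.69, 10.28 and 8.86 against 7.44 and 7.11, a difference of 2.34 (SE 0.42). Emp1, an epithelial membrane protein, was 10.22, 10.03 and 8.29 against 6.93 and 6.70, a difference of 2.70 (SE 0.52). In each of these 4 genes chief c lay between the other chief arrays and the parietal arrays. Gper1, a membrane receptor that responds to oestrogen, was 10.81, 10.49 and 9.32 against 7.99 and 7.96 and Prelp, a small leucine-rich matrix proteoglycan, was 7.76, 8.10 and 6.72 against 5.50 and 5.48. Ctsc, the protease cathepsin C, was 8.99, 9.31 and 7.52 against 6.32 and 6.21. Fam174b was 10.03, 10.04 and 8.69 against 7.58 and 7.34. With the mean of its 2 probesets in place of the brighter one, the difference of Fam174b was 1.34 and not 2.13, since the other probeset was dim. All of these 8 genes rose without chief c, with differences from 2.44 for Prelp to 3.40 for Pga5.

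The widest gaps with parietal above chief held carriers, channels and a nuclear receptor. Minar1 was 3.72, 4.00 and 4.80 against 6.26 and 6.14, a difference of -2.03 (SE 0.31), with all 3 chief arrays below the array medians. Slc25a34, a mitochondrial carrier, was 6.21, 4.97 and 6.44 against 7.77 and 7.90. Rufy4, a Rab-binding protein of endosome and autophagosome traffic, was 5.35, 4.17 and 6.36 against 7.58 and 7.58. Azgp1, the secreted zinc-alpha-2-glycoprotein, was 5.82, 4.89 and 6.79 against 7.98 and 8.40, a difference of -2.36 (SE 0.48). In these genes chief b was the lowest or next to lowest sorted array and chief c the chief array nearest to parietal. Plpp1, a lipid phosphate phosphatase, was 6.87, 6.28 and 7.08 against 8.27 and 8.29, and Ddo, D-aspartate oxidase, was 7.25, 5.88 and 7.28 against 8.26 and 8.35. Kcnip4, a subunit that modifies potassium channels, was 3.92, 4.04 and 4.34 against 5.60 and 5.52, and the voltage-gated potassium channel Kcnc2 was 3.58, 3.43 and 4.69 against 6.87 and 5.72. Kif5c, a kinesin motor, was 4.54, 4.41 and 5.25 against 6.48 and 6.26, and Art3, of the ADP-ribosyltransferase family, was 4.32, 3.20 and 5.65 against 7.51 and 6.74. For Kcnip4, Kcnc2, Art3 and Kif5c chief a and b were below the array medians, so the size of their differences is not settled. Without chief c, 9 of these 10 genes fell at limma's threshold, and the adjusted p of Ddo was 0.0688.

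**Figure D2:**
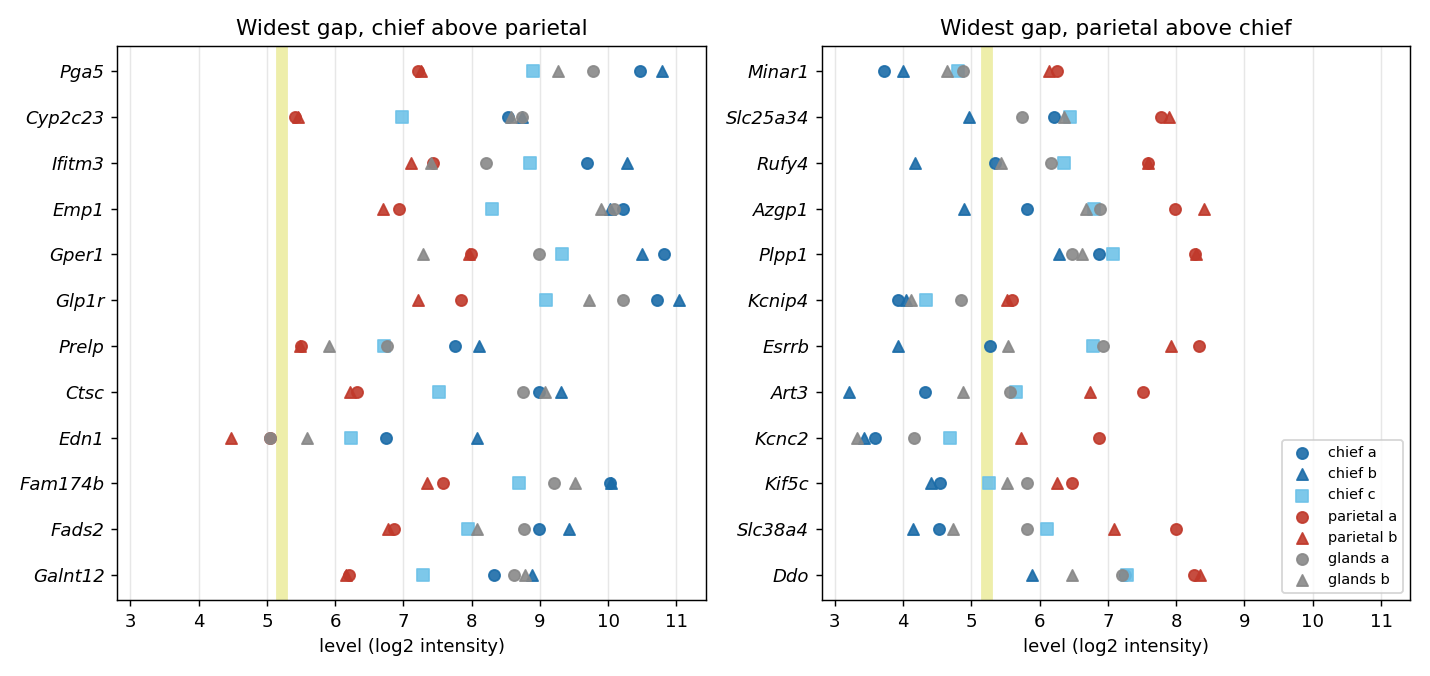
Log2 intensity on each array for the 12 genes with the widest gap in each direction, with the band marking the range of array medians. Chief c (light blue squares) lies nearer to the parietal arrays than chief a and b in each of the 12 genes on the left, for example 8.90 for Pga5 against 10.47 and 10.79.

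Ranked by size without chief c, further genes with large differences were Thbs1, the matrix protein thrombospondin 1, at 10.41, 10.06 and 7.80 against 7.09 and 6.29, and Cfi, complement factor I, at 10.40, 9.98 and 7.67 against 6.97 and 6.41. Myo16, an unconventional myosin, was 8.32, 8.51 and 6.16 against 4.92 and 5.12, and Rny3, a small cytoplasmic Y RNA, was 11.26, 10.47 and 8.30 against 8.50 and 6.97. Thbs1 rose by 3.54 (limma adjusted p = 0.0043), with glands at 6.26 and 5.91, below all 5 sorted arrays. Rny3 overlapped once chief c was counted. In the other direction Meg3, an imprinted long noncoding RNA, was 5.58, 5.99 and 8.96 against 10.74 and 9.73, with a difference of -3.39 (SE 1.00), the most negative of all genes tested, and -4.45 without chief c. Chst3, a chondroitin sulfotransferase, was 7.38, 4.41 and 9.04 against 9.95 and 9.65. Lrrn1, a leucine-rich repeat membrane protein, was 6.47, 5.90 and 9.15 against 10.05 and 9.57. Prnd, the prion-like protein doppel, was 7.64, 5.44 and 9.47 against 10.24 and 10.07. Ppp2r2c, a regulatory subunit of protein phosphatase 2A, was 4.24, 4.14 and 6.37 against 8.33 and 7.13. Atp13a4, a P5-type cation-transporting ATPase, was 5.10, 4.18 and 7.21 against 7.98 and 7.82. On each of these 6 genes chief c lay nearer to the parietal arrays than to chief a and b, yet below both parietal arrays.

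Receptors that control secretion had members on either side. Of 20 measured, 4 were without overlap above parietal (20.0%, against 10.9% of all genes) and 6 below (30.0%, against 19.2%), with a median difference of -0.10. Without chief c 2 rose (10.0%, against 4.83%) and 3 fell (15.0%, against 2.17%). Glp1r, the receptor of the incretin GLP-1, was 10.72, 11.04 and 9.09 against 7.84 and 7.22, and it rose by 3.35 (limma adjusted p = 0.0043). Ptger4, a prostaglandin E2 receptor coupled to cyclic AMP, was 7.77, 8.15 and 6.01 against 5.67 and 5.30, and it rose by 2.48 (limma adjusted p = 0.00627). Hrh2 fell by 2.20 (limma adjusted p = 0.00774). Cckbr, the gastrin receptor, was 6.34, 5.26 and 6.62 against 7.68 and 7.32 and fell by 1.70 (limma adjusted p = 0.0405). Sstr2, a somatostatin receptor, was 8.11, 6.49 and 9.95 against 9.86 and 10.11 and fell by 2.68 (limma adjusted p = 0.0254), but chief c was as high as the parietal arrays. The related cholecystokinin receptor Cckar had the opposite order to Cckbr, at 11.40, 11.58 and 10.50 against 9.81 and 9.40, with a difference of 1.56 (SE 0.51) and an adjusted p of 0.0726 without chief c. The muscarinic receptor Chrm3 was 8.80, 8.76 and 9.10 against 9.27 and 9.25 and Chrm1 was 6.78, 6.62 and 5.74 against 5.47 and 5.96, and neither passed the threshold. The secretin receptor Sctr was 8.59, 7.45 and 6.53 against 6.53 and 6.22, with both gland arrays above every sorted array, at 9.47 and 10.74.

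Among growth factor and TGF-beta family receptors the median difference was -0.02 over 26 genes. Without chief c 4 rose (15.4%, against 4.83% of all genes) and 4 fell (15.4%, against 2.17%). Fgfr2, a receptor kinase for fibroblast growth factors, was 7.71, 8.74 and 5.86 against 5.56 and 4.88 and rose by 3.01 (limma adjusted p = 0.00914). Fgfr4 was 6.85, 6.62 and 5.79 against 5.31 and 5.49 and Fgfr3 was 6.41, 6.64 and 5.58 against 5.58 and 5.57, and chief c matched the parietal arrays for Fgfr3. Tgfbr3, the TGF-beta co-receptor betaglycan, was 7.12, 7.18 and 5.17 against 4.87 and 4.91 and rose by 2.26 (limma adjusted p = 0.0043), a size that is not settled because both parietal arrays were below the array medians. Kit, the receptor of stem cell factor, was 8.55, 6.94 and 10.08 against 10.54 and 10.22 and fell by 2.63 (limma adjusted p = 0.0384). Bmpr1b, a BMP receptor, was 6.89, 6.06 and 9.02 against 9.27 and 9.12 and fell by 2.72 (limma adjusted p = 0.0117). For Kit and Bmpr1b chief c was just under the lower parietal array while chief a and b lay far below. Met, the hepatocyte growth factor receptor, was 8.27, 7.98 and 8.86 against 9.13 and 9.17, and Acvr1b, an activin receptor, was 8.42, 8.30 and 8.72 against 9.13 and 9.14, smaller falls in which each chief array was below both parietal arrays.

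The TNF receptor family, to which Troy belongs, and the cytokine receptors had a median difference of 0.08 over 24 genes. Without chief c 2 rose (8.33%, against 4.83% of all genes) and 2 fell (8.33%, against 2.17%). Tnfrsf21, death receptor 6, was 10.78, 11.15 and 9.11 against 8.25 and 8.24 and rose by 2.72 (limma adjusted p = 0.0043). Il6ra, the interleukin 6 receptor, was 6.25, 6.08 and 5.35 against 5.02 and 5.16 and rose by a smaller 1.08 (limma adjusted p = 0.0252). Tnfrsf11a, the receptor RANK, was 7.12, 6.53 and 7.67 against 8.37 and 7.80, and Il4ra, the interleukin 4 receptor, was 7.16, 6.89 and 7.66 against 8.05 and 8.13. Both fell, and in both chief c was below the parietal arrays as well. Lifr, the leukaemia inhibitory factor receptor, was 9.05, 8.31 and 9.19 against 9.70 and 9.56 without passing.

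Receptors of Wnt and Rspondin signals had a median difference of 0.19 over 20 genes, 6 without overlap above parietal (30.0%, against 10.9% of all genes) and 1 below (5.00%, against 19.2%). Without chief c 4 rose (20%, against 4.83%) and 0 fell. Lrp5, a Wnt co-receptor, was 8.59, 8.71 and 7.73 against 7.23 and 7.14 and rose by 1.47 (limma adjusted p = 0.0297). Of the Frizzled receptors, Fzd7 was 5.94, 6.29 and 5.46 against 5.26 and 5.01 and Fzd3 was 6.95, 7.15 and 5.54 against 5.73 and 5.45, and both rose, Fzd3 with chief c inside the parietal range. Ror1, a receptor for noncanonical Wnt ligands, was 6.85, 6.82 and 5.57 against 5.26 and 5.48 and rose by 1.47 (limma adjusted p = 0.00914). Fzd4 was 9.37, 8.92 and 9.56 against 9.88 and 9.72, the member of the list with parietal above chief on each array, and did not pass. Lgr5, an Rspondin receptor and stem cell marker, was 10.32, 10.58 and 9.71 against 9.95 and 9.45, with chief c inside the parietal range, and glands were at 7.31 and 5.73. Over the list as a whole chief c was at -0.594% of the way from parietal to chief a and b, so the mean excess of 0.42 and 0.51 on chief a and b was absent from chief c.

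Secreted signals had a median difference of 0.07 over 32 genes. Without chief c 5 rose (15.6%, against 4.83% of all genes) and 2 fell (6.25%, against 2.17%). Edn1, the vasoactive peptide endothelin 1, was 6.75, 8.08 and 6.23 against 5.05 and 4.48, highest on chief b, and rose by 2.65 (limma adjusted p = 0.0205). Hbegf, an EGF receptor ligand, was 9.30, 9.29 and 8.05 against 7.52 and 7.31, and Pdgfb, a platelet-derived growth factor chain, was 8.28, 7.94 and 6.39 against 5.91 and 6.02. Bmp2 was 7.22, 7.31 and 4.97 against 4.91 and 4.56 and Bmp3 was 6.18, 5.79 and 5.03 against 4.25 and 4.50. Of these 5 risen genes Bmp2 had a chief c level close to that of parietal a, and the other 4 had chief c above both parietal arrays. Fgf1, a fibroblast growth factor, was 5.70, 5.29 and 6.10 against 6.70 and 6.74 and fell by 1.23 (limma adjusted p = 0.0237). Wnt11 was 5.52, 5.28 and 6.11 against 6.55 and 6.15 and fell by 0.95 (limma adjusted p = 0.0488), with chief c just under parietal b.

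The list of digestive products held 14 measured genes, of which 10 were above parietal without overlap (71.4%, against 10.9% of all genes) and 3 below (21.4%, against 19.2%), some by narrow gaps. The median difference was 0.57. Without chief c 2 rose (14.3%, against 4.83% of all genes), the secreted Pga5 and the regulator Bhlha15, and 0 fell. Bhlha15 (Mist1), the transcription factor that scales up the secretory apparatus of chief cells, was 10.18, 10.26 and 8.80 against 7.94 and 7.53 and rose by 2.48 (limma adjusted p = 0.042). Pnliprp2, a pancreatic lipase-related protein, was 12.54, 12.19 and 11.62 against 10.63 and 10.30, and the related Pnliprp1 was 10.71, 9.91 and 8.92 against 8.34 and 7.57. Gkn3, a gastrokine of mucous neck and chief cells, was 12.09, 12.41 and 11.43 against 10.94 and 10.72. Pnliprp1, Pnliprp2 and Gkn3 had all chief arrays above both parietal arrays but adjusted p-values of 0.0709, 0.0616 and 0.0574 without chief c. Pgc, the pepsinogen progastricsin, was 13.59, 13.62 and 13.46 against 13.14 and 13.40 and Clps, colipase, was 13.56, 13.60 and 13.41 against 13.40 and 13.26, levels near the top of the array range with gaps to the parietal arrays of only 0.06 and 0.01. Rnase1, a pancreatic-type ribonuclease, ran the other way at 10.38, 7.90 and 11.60 against 11.70 and 11.71, low on chief b. The list mean of chief c lay 62.4% of the way from parietal to chief a and b, the highest among the role lists with a position given. Rnase1 and the amylase Amy1, at 7.27, 5.66 and 7.12 against 7.88 and 7.54, raise this position. They lower the mean of chief a and b more than that of chief c. The 8 chief cell markers, which do not include them, were at 49.6%.

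Genes of entry into the endoplasmic reticulum and folding had a list mean 0.77 and 0.61 above parietal on chief a and b and 0.02 above on chief c. Of 39 measured, 15 were above parietal without overlap (38.5%, against 10.9% of all genes) and 3 below (7.69%, against 19.2%). The median difference was 0.43 (0.69 without chief c), and without chief c 14 rose (35.9%, against 4.83%) and 0 fell. Derl3, a factor that passes misfolded proteins out of the endoplasmic reticulum, was 10.13, 10.11 and 8.74 against 7.75 and 7.35 and rose by 2.57 (limma adjusted p = 0.0392). Ero1b, the oxidase that supplies disulfide bonds in secretory cells, was 9.72, 9.43 and 8.27 against 7.85 and 7.38 and rose by 1.96 (limma adjusted p = 0.0282). Sdf2l1, a chaperone partner, was 10.44, 10.23 and 9.57 against 8.76 and 8.79 and rose by 1.56 (limma adjusted p = 0.00683). In these 3 genes chief c was above both parietal arrays. The main chaperone Hspa5 (BiP) was 12.10, 11.99 and 11.08 against 11.09 and 11.03, Calr (calreticulin) 11.84, 11.71 and 11.08 against 11.02 and 11.01 and Herpud1 12.04, 11.80 and 11.02 against 11.08 and 10.80, where chief c was level with the parietal arrays. The disulfide isomerases P4hb at 11.49, 11.78 and 10.80 against 10.61 and 10.58, Pdia6 at 9.54, 9.60 and 8.51 against 8.26 and 8.29 and Pdia5 at 7.80, 7.48 and 6.14 against 6.04 and 5.90 rose too. The mean of the list on chief c was 2.26% of the way from parietal to chief a and b, against 62.4% for the digestive products and 49.6% for the chief cell markers.

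Of 38 genes of traffic between the endoplasmic reticulum and the Golgi, 19 were above parietal without overlap (50%, against 10.9% of all genes) and 1 below (2.63%, against 19.2%). The median difference was 0.47 (0.64 without chief c), and without chief c 12 rose (31.6%, against 4.83%) and 0 fell. The list mean of chief c was 17.6% of the way from parietal to chief a and b. Kdelr3, a receptor that returns escaped endoplasmic reticulum proteins, was 9.11, 8.66 and 6.44 against 5.54 and 5.27 and rose by 3.48 (limma adjusted p = 0.00751), while Kdelr2 was 11.46, 11.46 and 10.73 against 10.54 and 10.52. Sec16b, which marks the sites where transport vesicles bud, was 8.93, 9.20 and 7.50 against 6.61 and 6.50 and rose by 2.51 (limma adjusted p = 0.0043). Creb3l1, a transcription factor activated by cleavage in the Golgi, was 10.90, 11.39 and 10.16 against 9.48 and 9.07 and rose by 1.87 (limma adjusted p = 0.011). The coat component Copz2 was 9.84, 9.67 and 9.19 against 8.43 and 8.24, above parietal on each chief array, with an adjusted p of 0.0513 without chief c. Mia3 (TANGO1), which loads bulky cargo, was 9.22, 9.46 and 8.00 against 7.77 and 7.62, and the cargo receptor Tmed3 was 9.70, 9.61 and 8.64 against 8.04 and 8.10.

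Promoters of 14749 genes were searched for short motifs known from the control of such genes, in the 250 bases before the start of each RefSeq transcript on either strand (GRCm38.p6). The endoplasmic reticulum stress element, CCAAT and CCACG with 9 bases between them, is known for the binding of ATF6 and NF-Y. It was present in 9 of 32 folding genes with a window (28.1%) and in 19 of all genes (0.129%). Those 9 genes were Hspa5, Hsp90b1, Calr, Canx, Pdia6, Dnajc3, Creld2, Ero1b and Derl3. Their differences without chief c ranged from 0.37 for Canx to 2.57 for Derl3. Of the 9, 6 rose, where 35.9% of the folding list and 4.83% of all genes did. The element TGACGTGG, known for XBP1 binding, was in 4 of 31 traffic genes (12.9%) and in 0.786% of all genes, and these were Sec16b, Sec24d, Copb1 and Kdelr3. Among all 706 higher genes with a window the first element was in 0.85% and the second in 1.27%. The stretches around the match are shown for the 2 members of each list with the largest difference, with the motif letters in capitals. Derl3 is read on the plus strand at chr10:75893192-75893310, Ero1b on the plus strand at chr13:12565633-12565750, Kdelr3 on the plus strand at chr15:79516328-79516407 and Sec16b, for 1 of its 2 windows, on the plus strand at chr1:157506702-157506795.
Derl3: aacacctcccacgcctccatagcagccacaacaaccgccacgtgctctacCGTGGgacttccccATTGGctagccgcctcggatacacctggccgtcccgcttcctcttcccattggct
Ero1b: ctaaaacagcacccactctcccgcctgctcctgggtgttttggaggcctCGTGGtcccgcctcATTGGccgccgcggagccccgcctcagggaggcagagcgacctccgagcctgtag
Kdelr3: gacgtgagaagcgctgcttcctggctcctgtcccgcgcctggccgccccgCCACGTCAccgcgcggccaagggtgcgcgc
Sec16b: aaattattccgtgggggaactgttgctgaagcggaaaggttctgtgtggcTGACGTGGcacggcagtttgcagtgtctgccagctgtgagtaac
In Derl3, Ero1b and Kdelr3 the letters run as the reverse complement of the motif, and in Sec16b as written. A match describes the sequence and does not show that a factor is bound there.

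Granule and exocytosis genes had a median difference of -0.01 over 31 genes, with 8 above parietal without overlap (25.8%, against 10.9% of all genes) and 7 below (22.6%, near the 19.2% of all genes). Without chief c 5 rose (16.1%, against 4.83%) and 1 fell (3.23%, near the 2.17% of all genes). Rab3d, the GTPase of zymogen granules, was 10.58, 10.42 and 9.44 against 9.05 and 8.59 and rose by 1.68 (limma adjusted p = 0.00959). Nucb2, the precursor of the peptide nesfatin 1, was 9.95, 10.18 and 8.64 against 7.86 and 7.51 and rose by 2.38 (limma adjusted p = 0.0262). Cadps2, a priming factor of granules, was 6.64, 7.08 and 5.94 against 5.75 and 5.26, and Pam, which amidates peptides, was 8.93, 8.97 and 7.29 against 6.98 and 6.83, where Pam rose by 2.04 (limma adjusted p = 0.0043) and Cadps2 by less. Copa, a vesicle coat subunit counted in this and the traffic list, was the fifth, at 11.58, 11.43 and 10.76 against 10.66 and 10.76. Stx7, an endosomal syntaxin, was 8.50, 8.33 and 9.04 against 9.27 and 9.30 and fell. The synaptotagmin-like proteins Sytl5 and Sytl4 were below parietal on each chief array without passing, Sytl5 at 6.74, 6.59 and 6.62 against 7.41 and 7.51 and Sytl4 at 6.95, 5.47 and 7.49 against 8.12 and 7.91.

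Mucins, trefoil factors and the enzymes that build mucin sugars had a median difference of 0.29 over 35 genes. Without chief c 12 rose (34.3%, against 4.83% of all genes) and 2 fell (5.71%, against 2.17%). A4gnt, which caps the mucin of neck cells with its characteristic sugar, was 11.20, 11.68 and 9.84 against 8.52 and 8.02 and rose by 3.17 (limma adjusted p = 0.00613). Of 8 measured enzymes that start mucin-type chains 6 rose, among them Galnt12 at 8.33, 8.88 and 7.29 against 6.20 and 6.16 and Galnt3 at 9.83, 10.14 and 8.99 against 8.10 and 8.02. Galnt6 was 7.40, 7.91 and 5.46 against 5.52 and 5.59, with chief c level with parietal, and Galnt7 was 10.08, 10.80 and 8.70 against 7.94 and 7.81. The other two did not pass, Galnt1 at 7.79, 7.53 and 7.98 against 8.31 and 8.18, below parietal on each chief array, and Galnt2 at 9.21, 8.82 and 8.71 against 9.17 and 9.04, which overlapped. These enzymes were singled out of the list after their values were seen. Gcnt3, a branching enzyme, was 9.39, 8.96 and 6.95 against 5.93 and 6.23 and rose by 3.09 (limma adjusted p = 0.00664). Muc1, a membrane mucin, was 11.99, 12.20 and 10.97 against 10.14 and 10.02, and Agr2, a folding factor of mucins, was 12.40, 12.70 and 11.61 against 10.90 and 10.83, both risen. The secreted mucin Muc6 was 12.81, 13.18 and 12.42 against 11.93 and 11.97, above parietal on each chief array, with an adjusted p of 0.0567. Muc5ac, the mucin of pit cells, was 12.01, 9.84 and 9.87 against 10.10 and 10.13, high on chief a alone, beside the pit marker mean given above. Fut9, a fucosyltransferase, was 7.50, 5.67 and 8.66 against 9.12 and 9.68, and St3gal1, a sialyltransferase, was 6.73, 5.73 and 7.89 against 8.89 and 8.14, and both fell. The mean of the neck cell markers, which include A4gnt and Galnt7, was likewise higher on chief a and b than on chief c and lowest on the parietal arrays. The part of neck cells in these values was not tested.

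Carriers and channels of acid secretion were 28 genes with a median difference of -0.01. Without overlap 6 were above parietal (21.4%, against 10.9% of all genes) and 9 below (32.1%, against 19.2%). Without chief c 2 rose (7.14%, against 4.83%) and 1 fell (3.57%, against 2.17%), counts too small to set apart from those shares. Slc26a7, an anion exchanger of parietal cells, was 7.04, 5.50 and 8.31 against 9.29 and 8.96 and fell by 2.85 (limma adjusted p = 0.0289). The pump's alpha subunit Atp4a was 13.06, 12.62 and 13.22 against 13.16 and 13.08, overlapping and near the top of the range. The potassium channel parts Kcnq1 at 11.56, 10.83 and 11.78 against 12.11 and 11.97 and Kcne2 at 9.71, 8.38 and 10.31 against 10.58 and 10.19, which recycle potassium for the pump, were lowest on chief b and did not pass. Kcnk1, a background potassium channel, ran the other way at 9.80, 10.09 and 8.36 against 7.45 and 7.09 and rose by 2.68 (limma adjusted p = 0.0043). Kcne3, a regulatory channel subunit, was 8.52, 8.36 and 7.52 against 6.73 and 6.93 and rose by 1.61 (limma adjusted p = 0.0406).

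Genes of tubulovesicles and canaliculi had a median difference of -0.28 over 31 genes. Without overlap 3 were above parietal (9.68%, against 10.9% of all genes) and 17 below (54.8%, against 19.2%). Without chief c 0 rose and 4 fell (12.9%, against 2.17%). Rab11fip5, an effector of Rab11, was 5.81, 5.00 and 6.94 against 7.80 and 7.45 and fell by 2.22 (limma adjusted p = 0.0134). Rab11a, the GTPase of recycling and tubulovesicle membranes, was 8.86, 7.97 and 9.34 against 9.86 and 9.75 and fell by 1.39 (limma adjusted p = 0.0407). Hip1r, an actin and clathrin linker, was 8.55, 7.67 and 9.23 against 9.56 and 9.43, and Ap1s3, an adaptor subunit, was 8.02, 7.73 and 8.42 against 8.68 and 8.85, the other 2 that fell. Ezrin (Ezr), which ties canaliculi to actin, was 11.62, 10.92 and 12.02 against 12.04 and 12.12 without passing, and Epb41l3, a membrane skeleton protein, was 4.57, 4.77 and 4.69 against 5.29 and 5.57.

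Of 30 nutrient carriers 5 rose (16.7%, against 4.83% of all genes) and 2 fell (6.67%, against 2.17%) without chief c. Slc7a5, the large neutral amino acid exchanger, was 10.73, 10.78 and 9.42 against 8.82 and 8.58 and rose by 2.05 (limma adjusted p = 0.00945). The amino acid carriers Slc1a5 at 9.59, 9.20 and 8.28 against 8.02 and 7.32, Slc1a4 at 7.11, 7.57 and 5.94 against 5.82 and 5.66 and Slc6a9, for glycine, at 10.10, 10.21 and 8.89 against 8.65 and 8.35 rose with it. Slc39a8, a zinc and manganese importer, was 6.26, 6.86 and 5.50 against 4.99 and 4.83 and was the fifth. The 2 that fell were Slc38a4, an amino acid carrier, at 4.52, 4.14 and 6.10 against 7.99 and 7.09, and Slc40a1, the iron exporter ferroportin, at 5.53, 4.51 and 6.18 against 7.28 and 6.87. Slc38a4 fell by 3.21 (limma adjusted p = 0.00984) and was below the array medians on chief a and b.

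Subunits of oxidative phosphorylation were below parietal in a graded way across the chief arrays. All 46 measured nuclear-encoded subunits had a difference below 0, 37 of them without overlap (80.4%, against 19.2% of all genes), and the median difference was -0.70. The list mean was 10.78, 9.87 and 11.17 against 11.33 and 11.30, so chief b was lowest, chief a next and chief c close to parietal, at 14.9% of the way to chief a and b. The median was -0.34 without chief b and -0.99 without chief c. Without chief c 4 subunits fell (8.70%, against 2.17%) and 0 rose. Of complex I, Ndufa1 was 7.48, 7.10 and 8.08 against 8.54 and 8.54 and fell by 1.25 (limma adjusted p = 0.0285). Ndufa4, assigned to cytochrome oxidase, was 10.11, 9.32 and 10.88 against 11.17 and 11.13, complex I subunit Ndufb2 6.73, 6.05 and 7.44 against 7.92 and 7.59 and complex IV subunit Cox5a 9.79, 8.93 and 10.48 against 10.74 and 10.73. The complex I subunit Ndufb5 was 9.87, 8.77 and 10.36 against 10.74 and 10.71 and the complex IV subunit Cox4i1 10.51, 9.31 and 10.96 against 11.26 and 11.25, without passing. Cox7a1, a form known from heart and muscle, was 10.63, 8.57 and 11.67 against 11.66 and 11.78, a wide spread over the chief arrays. The smallest difference was that of the ATP synthase subunit Atp5b, at 12.49, 12.04 and 12.35 against 12.37 and 12.32. The squamous marker mean was high on the same array, chief b, on which these genes were lowest. On chief a it was 4.47 against 4.18 and 4.42 on the parietal arrays, although its member Krt5 was above both parietal arrays there. The list mean of the subunits on chief a was 10.78. Glands were at 10.82 and 10.52. The part of squamous cells was not tested.

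**Figure D3:**
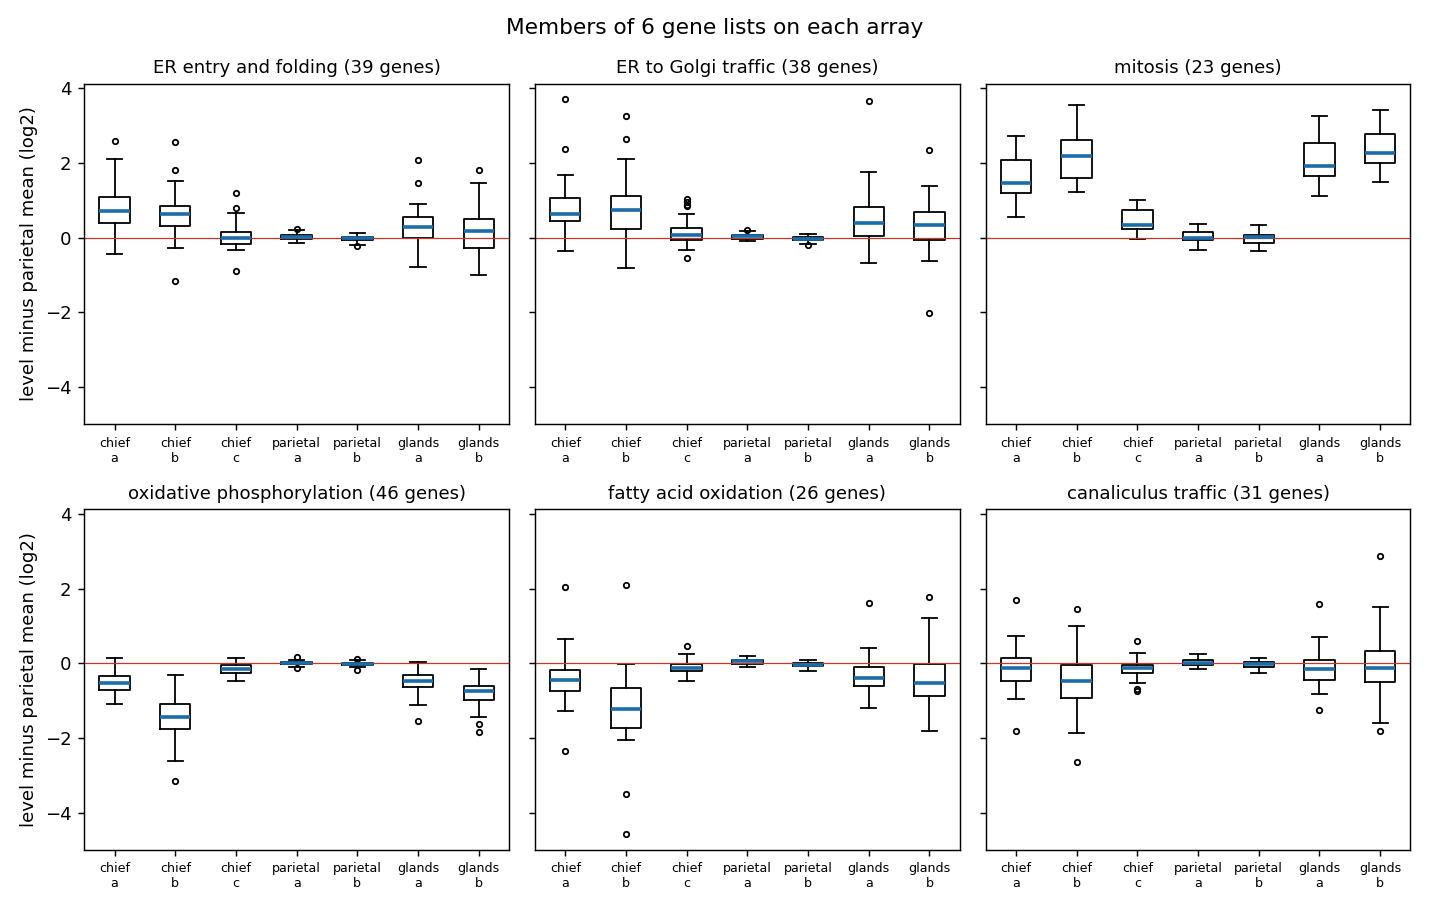
Members of 6 gene lists on each array as the log2 level minus the parietal mean, as box plots with the median, the quartiles, whiskers and outlying points. Folding, traffic and mitosis genes are high on chief a and b, and oxidative phosphorylation and fatty acid oxidation genes are lowest on chief b. The list means of chief c are 0.45 above parietal for mitosis genes and between -0.15 and 0.14 for the other lists shown.

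Pyruvate and citrate cycle genes had a median difference of -0.53 over 31 genes (-0.24 without chief b). Without chief c 0 rose and 2 fell (6.45%, against 2.17% of all genes). Idh2, mitochondrial isocitrate dehydrogenase, was 11.07, 11.02 and 12.01 against 12.14 and 11.93 and fell by 0.99 (limma adjusted p = 0.0252). Pdk4, the kinase that shuts pyruvate dehydrogenase, was 8.29, 7.46 and 9.47 against 9.41 and 9.33 and fell by 1.50 (limma adjusted p = 0.0285). In both genes chief c was inside or next to the parietal range. Pcx, pyruvate carboxylase, was 9.91, 8.85 and 10.18 against 10.48 and 10.47, Dld, a shared dehydrogenase subunit, was 9.57, 8.39 and 9.50 against 9.85 and 9.88 and Pdp1, the phosphatase opposing Pdk4, was 7.07, 6.60 and 7.60 against 7.93 and 7.87, below parietal on each chief array without passing.

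Glycolysis and glycogen genes had a median difference of -0.36 over 29 genes. Without chief c 1 rose (3.45%, near the 4.83% of all genes) and 2 fell (6.90%, against 2.17%). Pfkl, the liver form of phosphofructokinase, was 8.79, 8.16 and 9.60 against 9.89 and 9.84 and fell by 1.39 (limma adjusted p = 0.0232). Pgam2, the muscle form of phosphoglycerate mutase, was 4.60, 4.27 and 5.84 against 6.15 and 5.82 and fell from a level near the array medians. Fbp2, a fructose bisphosphatase of gluconeogenesis, was 6.66, 6.93 and 5.10 against 4.79 and 4.93 and rose by 1.93 (limma adjusted p = 0.0249), with glands higher still at 7.42 and 8.52. The regulators Pfkfb2 at 9.40, 8.94 and 9.48 against 9.87 and 9.85 and Pfkfb3 at 8.23, 6.38 and 9.14 against 9.49 and 9.51 and the glycogen branching enzyme Gbe1 at 8.15, 7.41 and 8.09 against 8.46 and 8.69 were below parietal on each chief array and did not pass.

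Fatty acid oxidation genes had a median difference of -0.56 over 26 genes (-0.28 without chief b), 13 of them below parietal without overlap (50%, against 19.2% of all genes) and 1 above (3.85%, against 10.9%). Without chief c 1 rose (3.85%, near the 4.83% of all genes) and 3 fell (11.5%, against 2.17%). Cd36, the fatty acid transporter, was 8.73, 6.51 and 10.60 against 11.07 and 11.09 and fell by 3.46 (limma adjusted p = 0.0298). Hadhb, of the trifunctional enzyme, was 9.64, 8.60 and 10.43 against 10.71 and 10.55 and Etfa, an electron carrier, was 9.55, 8.81 and 10.23 against 10.43 and 10.49, the other 2 that fell. Acads, the short-chain dehydrogenase, was 8.60, 7.44 and 9.08 against 9.36 and 9.35 without passing. Acsl4, which activates polyunsaturated fatty acids, was the 1 member that rose, at 7.83, 7.86 and 6.24 against 5.86 and 5.69, by 2.07 (limma adjusted p = 0.0043). Lpl, lipoprotein lipase, counted with lipid synthesis and storage, was 9.98, 8.86 and 11.02 against 11.28 and 11.34 and fell by 1.89 (limma adjusted p = 0.0434).

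The lipid synthesis list had a median difference of 0.22 over 34 genes, with 13 above parietal without overlap (38.2%, against 10.9% of all genes) and 9 below (26.5%, against 19.2%). Without chief c 8 rose (23.5%, against 4.83%) and Lpl alone fell. The desaturases Fads2 at 8.99, 9.42 and 7.95 against 6.86 and 6.77, Scd2 at 11.04, 11.04 and 10.13 against 9.10 and 8.99, Scd1 at 7.76, 7.69 and 6.18 against 5.41 and 5.30 and Fads1 at 8.60, 8.84 and 6.44 against 5.73 and 5.50 rose, all with chief c above both parietal arrays. The elongase Elovl5 was 7.33, 8.27 and 5.55 against 4.93 and 4.44 and rose by 3.12 (limma adjusted p = 0.00622), with both parietal arrays below the array medians and the size therefore not settled. The sterol genes Idi1 at 8.93, 7.95 and 7.68 against 6.89 and 7.07, Cyp51 at 7.89, 7.57 and 6.99 against 6.69 and 6.51 and Insig1 at 9.91, 9.76 and 9.29 against 8.79 and 8.61 rose by less. Acly, ATP citrate lyase, was 9.39, 9.35 and 9.28 against 9.78 and 9.57 and Hmgcs1, of the sterol pathway, was 9.57, 9.54 and 9.58 against 9.74 and 9.78, below parietal on each chief array, and neither passed.

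Of 21 genes of creatine and adenylate energy buffering 1 rose (4.76%, near the 4.83% of all genes) and 1 fell (4.76%, against 2.17%) without chief c. Ckmt1, the mitochondrial creatine kinase, was 9.77, 9.02 and 10.32 against 10.72 and 10.87 and fell by 1.40 (limma adjusted p = 0.0331). Ampd2, an AMP deaminase, was 8.19, 7.82 and 6.65 against 6.03 and 5.91 and rose by 2.03 (limma adjusted p = 0.00613), with a difference of 0.87 in place of 1.58 when its 2 probesets were averaged. Ampd3 was 8.10, 7.91 and 7.81 against 7.15 and 7.25, above parietal on each chief array without passing. Of 19 genes of this list with a promoter window 4 held AAGGTCA, the half-site known for oestrogen-related receptors (21.1%), against 4.03% of all genes, 5.56% of 36 oxidative phosphorylation genes, 5.88% of the 306 lower genes and 1.84% of the 706 higher genes with a window. The stretch is shown for Ckmt1, 1 of its 2 windows on the plus strand at chr2:121357547-121357653, and for Atp13a4, 1 of its 2 windows on the minus strand at chr16:29545017-29545114, because oestrogen-related receptor genes are described below. Of the 4 list members with the half-site 1 fell, Ckmt1, while Ak1, Prkag2 and Vdac1 had adjusted p-values of 0.143, 0.0887 and 0.175 without chief c. Atp13a4 is no member of the list and was picked among the fallen genes after its values were seen. The capitals mark the motif, as its reverse complement.
Ckmt1: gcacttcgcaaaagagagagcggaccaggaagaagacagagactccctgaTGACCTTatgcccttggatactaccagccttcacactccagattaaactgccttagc
Atp13a4: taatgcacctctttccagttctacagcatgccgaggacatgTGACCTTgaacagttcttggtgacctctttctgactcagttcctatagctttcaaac

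Amino acid synthesis and one-carbon genes had a median difference of 0.26 over 27 genes. Without chief c 5 rose (18.5%, against 4.83% of all genes) and 1 fell (3.70%, against 2.17%). Chac1, a glutathione-degrading enzyme induced by amino acid shortage, was 8.68, 8.81 and 7.69 against 6.77 and 6.52 and rose by 2.10 (limma adjusted p = 0.00577). Mthfd2, a mitochondrial folate enzyme, was 8.82, 9.09 and 7.59 against 6.74 and 6.63, and Psat1, of serine synthesis, was 7.65, 8.14 and 6.52 against 5.85 and 5.93. Aldh18a1, of proline synthesis, was 10.08, 10.10 and 8.61 against 8.31 and 8.05, and Asns, asparagine synthetase, was 11.91, 11.75 and 11.20 against 10.81 and 10.72. In these 5 genes each chief array was above both parietal arrays. Cth, which makes cysteine from cystathionine, was 8.71, 8.35 and 9.31 against 9.78 and 9.64 and fell by 1.18 (limma adjusted p = 0.0285). The amino acid response element TGATGCAA, known for ATF4 binding, was in 3 of 24 windows (12.5%) and in 0.725% of all genes. Those 3 were Chac1, Got1 at 11.18, 10.33 and 11.42 against 11.55 and 11.50 and Fgf21, which was below the array medians, so 1 of the 3 rose. The Chac1 stretch on the plus strand at chr2:119350999-119351106 holds it as the reverse complement, in capitals.
Chac1: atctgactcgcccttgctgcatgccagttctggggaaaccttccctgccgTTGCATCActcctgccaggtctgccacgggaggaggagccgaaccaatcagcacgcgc

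Enzymes of alcohol, drug and redox metabolism had a median difference of -0.22 over 40 genes. Without chief c 3 rose (7.50%) and 2 fell (5.00%), few genes and near the 4.83% and 2.17% of all genes. Gstt1, a glutathione transferase, was 9.27, 8.80 and 8.21 against 7.82 and 7.64, Aldh1a7, an aldehyde dehydrogenase, was 8.22, 7.79 and 6.42 against 6.27 and 6.28 and Adh7, a retinol-oxidising alcohol dehydrogenase, was 7.86, 8.37 and 5.23 against 5.17 and 5.75. Adh7 and Aldh1a7 had chief c at the parietal level, and Adh7 was highest in glands at 9.51 and 10.75. Gpx4, which detoxifies lipid peroxides, was 8.79, 8.02 and 9.27 against 9.79 and 9.72, and Hpgd, which degrades prostaglandins, was 9.71, 9.53 and 10.32 against 10.55 and 10.47, and both fell. Akr1b8, an aldo-keto reductase, was 7.31, 6.22 and 5.55 against 5.01 and 5.01, with glands at 6.20 and 9.65 and an SE of 0.91 on its difference.

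Transcription factors of gastric and glandular epithelium included 9 risen (23.7%, against 4.83% of all genes) and 0 fallen of 38 without chief c. Without overlap 16 were above parietal (42.1%, against 10.9%) and 3 below (7.89%, against 19.2%), and the median difference was 0.33. Foxp2, a forkhead factor, was 7.76, 8.04 and 6.32 against 5.29 and 5.32 and rose by 2.59 (limma adjusted p = 0.0043). Spdef, a factor of secretory mucous cells, was 9.70, 9.63 and 8.11 against 7.08 and 7.17 and rose by 2.54 (limma adjusted p = 0.00557). Ehf, an epithelial ETS factor, was 9.36, 10.36 and 8.16 against 7.25 and 6.96 and rose by 2.75 (limma adjusted p = 0.00751). In these 3 genes chief c lay above both parietal arrays by about 1 log2 unit. Sox2, a factor of the foregut and also of squamous epithelium, was 7.66, 9.02 and 6.46 against 5.88 and 5.62, highest on chief b. Sox9 was 11.18, 11.38 and 10.73 against 10.35 and 10.11, Foxq1, a factor of mucin granules, was 9.29, 9.13 and 7.56 against 6.93 and 6.79 and Hnf4a was 9.86, 9.83 and 8.34 against 8.31 and 8.10, with chief c level with parietal for Hnf4a. Klf5 at 10.54, 11.06 and 9.85 against 9.62 and 9.46 and Id4 at 6.55, 6.92 and 5.23 against 4.86 and 4.34 complete the risen set. The foregut factors Gata4 at 10.97, 10.81 and 10.84 against 10.92 and 10.82 and Gata6 at 11.33, 11.52 and 11.29 against 11.31 and 11.27 differed by 0.00 and 0.09, less than their SE of 0.18 and 0.17.

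Nuclear receptors and their coactivators had a median difference of -0.12 over 36 genes. Without chief c 1 rose (2.78%, against 4.83% of all genes) and 2 fell (5.56%, against 2.17%). Esrrb, an oestrogen-related receptor, was 5.27, 3.93 and 6.78 against 8.34 and 7.92 and fell by 3.53 (limma adjusted p = 0.0167). Its relative Esrra was 7.54, 6.39 and 8.04 against 8.59 and 8.69 and fell by 1.67 (limma adjusted p = 0.0459). In both, each chief array was below both parietal arrays, in the order b, a, c from the lowest. The third member, Esrrg, was 11.24, 10.57 and 11.70 against 11.59 and 11.73 and overlapped. The coactivators Ppargc1a at 9.95, 9.19 and 10.90 against 11.17 and 11.03 and Ppargc1b at 8.45, 7.15 and 9.19 against 9.33 and 9.21, known for driving mitochondrial genes, had the same order of chief arrays with adjusted p-values of 0.0569 and 0.0743 without chief c. Ppara, a receptor that controls fatty acid oxidation, was 7.50, 6.71 and 7.74 against 8.15 and 8.18 and did not pass. Nr4a1, an immediate early orphan receptor, was 10.34, 11.27 and 7.98 against 8.11 and 7.56 and rose by 2.97 (limma adjusted p = 0.00969), with chief c at the parietal level.

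Immediate early and stress response genes were higher in chief cells, with 21 of 30 above parietal without overlap (70.0%, against 10.9% of all genes) and 0 below, a median difference of 0.84 (0.67 without chief b), and 13 risen (43.3%, against 4.83%) and 0 fallen without chief c. Atf3, a stress factor, was 12.00, 12.21 and 11.55 against 10.83 and 10.74 and rose by 1.32 (limma adjusted p = 0.00993), with glands at 6.78 and 6.78. Fosb, of the AP-1 family, was 11.86, 12.10 and 10.84 against 10.18 and 9.86 and did not pass, at an adjusted p of 0.0976, with glands at 7.43 and 5.39. Maff, a small Maf factor, was 5.64, 6.95 and 5.34 against 4.51 and 4.38 and rose by 1.85 (limma adjusted p = 0.0438). Egr1 was 11.08, 11.64 and 9.99 against 9.59 and 9.38 and Egr2 was 7.64, 9.60 and 5.51 against 5.34 and 5.28, where Egr2 was high on chief b and chief c was near parietal. Fos at 11.40, 11.36 and 10.13 against 9.61 and 9.02, Jun at 12.11, 12.34 and 11.23 against 11.05 and 10.81 and Dusp1, a phosphatase that ends such signals, at 11.56, 11.55 and 10.94 against 10.56 and 9.98 rose as well. The list mean was 8.93, 9.23 and 8.43 against 8.20 and 7.91, and 7.09 and 7.28 in glands, below all sorted arrays. The sorted cells were trypsinized and the glands were not, per the labels' protocols, so handling and cell type cannot be told apart in that part. The gap between the 2 parietal arrays in the list mean was the widest among the role lists.

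**Figure D4:**
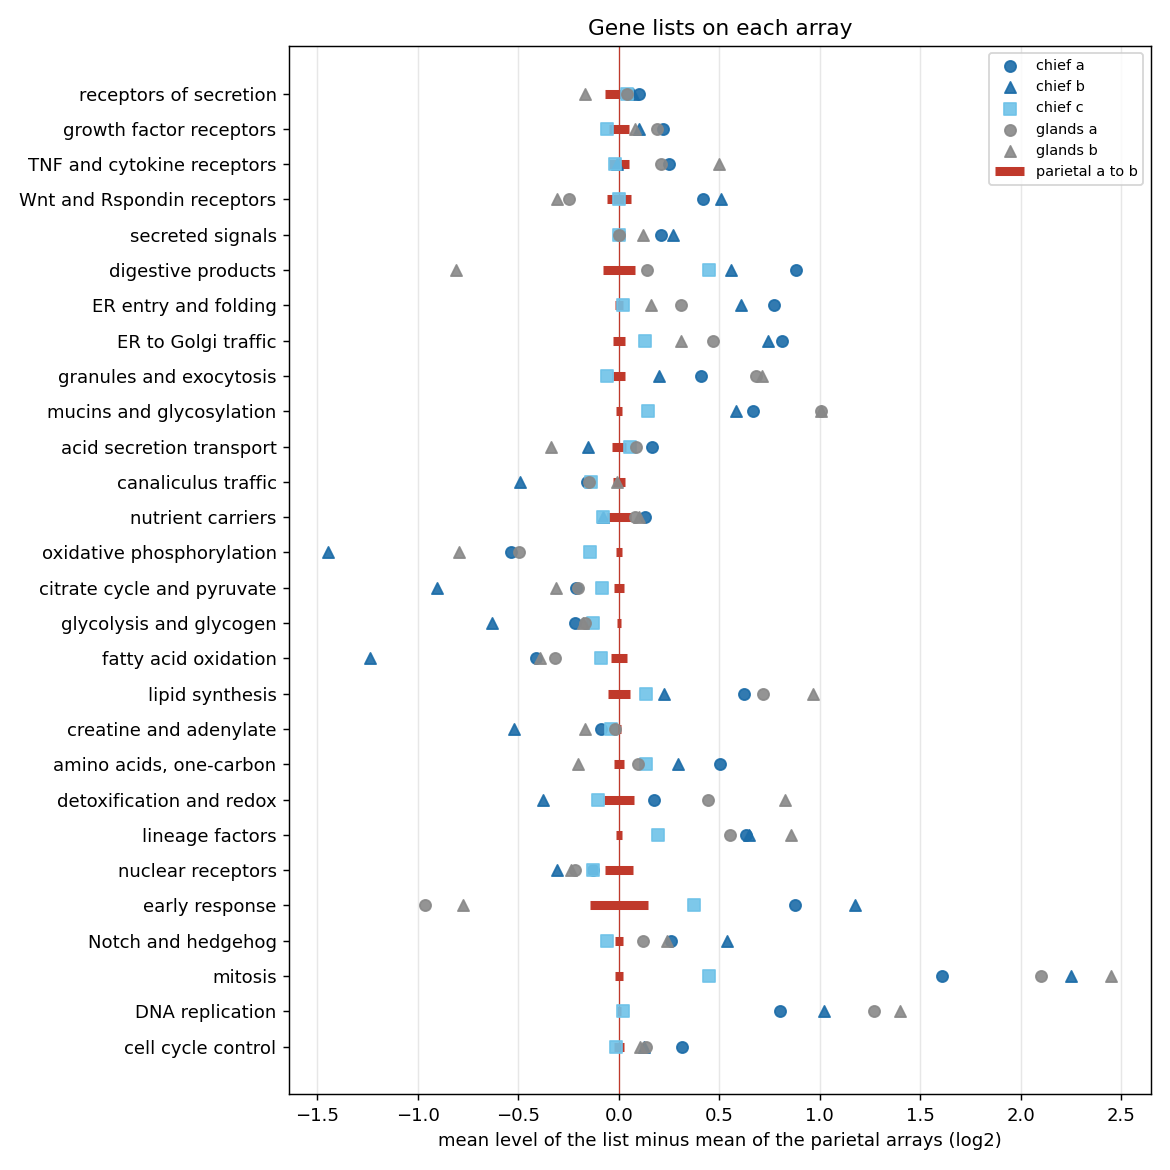
Mean log2 level of 28 gene lists on each array minus the mean of the parietal arrays, with the red bar spanning parietal a to b. Mitosis genes are highest, at 1.61 on chief a and 2.25 on chief b, oxidative phosphorylation is lowest, at -1.45 on chief b, and chief c lies near 0 for most lists.

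Notch and hedgehog genes had a median difference of 0.18 over 29 genes, of which 6 rose (20.7%, against 4.83% of all genes) and 0 fell without chief c. The receptors Notch1 at 8.29, 9.29 and 6.95 against 6.71 and 6.47 and Notch2 at 7.56, 7.87 and 6.20 against 5.89 and 5.53 rose, Notch2 by 2.01 (limma adjusted p = 0.0062). Hes1, a Notch target, was 9.59, 9.93 and 7.98 against 7.94 and 7.53 and rose by 2.02 (limma adjusted p = 0.00745), with chief c just above parietal a. Lfng, which modifies Notch, was 7.27, 6.84 and 6.12 against 5.49 and 5.72, and the coactivators Maml1 and Maml2 were 7.09, 7.04 and 6.57 against 6.20 and 6.10 and 6.69, 7.64 and 5.89 against 5.65 and 5.57. Dlk1, an imprinted Notch-like ligand encoded beside Meg3, was 4.99, 5.09 and 5.22 against 5.86 and 5.62, below parietal on each chief array at levels near the array medians, without passing.

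Mitosis genes had the highest median of the role lists. All 23 measured genes had a difference above 0, 18 of them without overlap (78.3%, against 10.9% of all genes). The median difference was 1.37, and it was 0.91 without chief b and 1.89 without chief c. Without chief c 21 rose (91.3%, against 4.83%) and 0 fell. Ccna2, cyclin A2, was 9.03, 9.79 and 7.41 against 6.55 and 6.26 and rose by 3.01 (limma adjusted p = 0.00524). Mki67, the proliferation marker Ki-67, was 8.84, 9.96 and 7.49 against 6.70 and 6.36 and rose by 2.87 (limma adjusted p = 0.00865). Top2a, the topoisomerase of chromosome segregation, was 7.66, 8.49 and 5.85 against 4.99 and 4.91 and rose by 3.13 (limma adjusted p = 0.00516). Plk1, a mitotic kinase, was 8.19, 8.62 and 6.93 against 6.23 and 5.94 and Ccnb2, cyclin B2, was 9.15, 9.62 and 7.73 against 7.03 and 6.48. In these 5 genes chief b was highest and chief c was between chief a and the parietal arrays. Averaging the 3 probesets of Top2a, of which 2 were dim, took its difference from 2.38 to 0.83. The list mean was 6.95, 7.59 and 5.79 against 5.36 and 5.32, with the parietal means close to the array medians, so the size of the difference is not settled for members that are not above background there. Glands were at 7.44 and 7.79. The squamous marker mean was high on chief b too. On chief a it was 4.47 against 4.18 and 4.42 on the parietal arrays, although its member Krt5 was above both parietal arrays there. The mitosis mean on chief a was 1.61 above parietal. The part of squamous cells was not tested.

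Of 20 mitosis genes with a promoter window 9 held TTTGAA, the core of the cell cycle homology region (45.0%), against 15.7% of all genes, and 18 held CCAAT (90.0%), against 39.1%. The 9 were Ccnb2, Cdc20, Cdk1, Cep55, Kif11, Mki67, Ncapg, Prc1 and Top2a. Without chief c 8 of them rose, near the 91.3% of the whole mitosis list, against 4.83% of all genes. The members with the motif thus did not stand out from the list. Mki67 is shown as the common marker of dividing cells, on the minus strand at chr7:135716422-135716545, with both matches in capitals. Among all 706 higher genes with a window the share with TTTGAA was 13.5%.
Mki67: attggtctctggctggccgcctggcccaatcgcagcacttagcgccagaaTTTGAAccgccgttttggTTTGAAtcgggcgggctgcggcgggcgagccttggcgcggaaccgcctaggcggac

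DNA replication genes had a median difference of 0.62 over 24 genes, and 1.02 without chief c, where 13 rose (54.2%, against 4.83% of all genes) and 0 fell. Rrm2, a subunit of ribonucleotide reductase, was 7.28, 7.05 and 5.84 against 5.44 and 5.42 and rose by 1.74 (limma adjusted p = 0.00608). The helicase subunits Mcm5 at 7.60, 7.58 and 6.51 against 6.26 and 6.19 and Mcm4 at 6.94, 7.46 and 6.36 against 6.10 and 6.04 rose with chief c above both parietal arrays, whereas Mcm6 at 6.86, 7.61 and 5.65 against 5.83 and 5.79 and Mcm7 at 7.78, 7.87 and 6.60 against 6.92 and 6.67 had chief c below them. The list mean of chief c was 2.60% of the way from parietal to chief a and b, against 23.3% for mitosis genes.

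Cyclins, inhibitors and p53 targets had a median difference of 0.12 over 26 genes, with 3 risen (11.5%, against 4.83% of all genes) and 0 fallen without chief c. Ccnd1, cyclin D1, was 9.63, 10.12 and 9.07 against 8.33 and 8.11 and rose by 1.65 (limma adjusted p = 0.012). Cdkn1c, the cell cycle inhibitor p57, was 8.77, 8.29 and 7.82 against 6.63 and 6.75 and rose by 1.84 (limma adjusted p = 0.0353), so an inhibitor and cyclins were higher on the same arrays. Rbl1, a relative of the retinoblastoma protein, was 6.54, 7.07 and 4.90 against 4.52 and 5.11, with chief c inside the parietal range. Cdk4 was 10.75, 10.64 and 10.37 against 9.91 and 10.07, above parietal on each chief array without passing.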

How the data were processed

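RNA of the sorted cells and glands was measured on Affymetrix arrays, 1 sample per array. The deposited values are log2 intensities of 35556 probesets, which the authors made with RMA and Affymetrix Power Tools, per the submitters' processing notes. The software version and the background model were not given in the sources used here. Because RMA equalises the distribution of values between arrays, a shift common to most genes could not be seen. Detection calls were not used.

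Gene names came from the platform annotation: 21218 probesets had 1 symbol, 1881 several and 12457 none, and 21202 of the first matched the RefSeq table (GRCm38.p6). Where several probesets carried one gene symbol, the probeset brightest on average over the 7 arrays stood for the gene, giving 18820 genes (1386 were chosen this way). Groups followed the sample titles. Chief minus parietal was fitted in R 4.3.3 with limma 3.58.1 (lmFit, then eBayes; statmod 1.5.0 for blocks), with a mean per group and no block. P-values were adjusted by Benjamini-Hochberg over all genes, with a threshold of 0.05, and they measure the spread between pooled arrays only. The script was checked on simulated data.

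The members, the 28 role lists and the 12 marker lists (1015 entries, 906 distinct genes measured) were chosen with earlier results of these data known. Named genes were the sorted gene and 4 markers, the 12 genes with the widest gap in each direction, the 10 largest differences in each direction past the threshold without chief c, and up to 3 members per role list with the widest gap and the higher group above the array median, or the brightest 2 where fewer than 2 qualified. Predicted genes with no name were skipped. Promoter sequences are RefSeq's, up to 250 bases before a transcript start, and 14749 genes matched, with 18155 windows. Alternatives changed the normalization, centring, filter, variance model, weights, arrays, probeset rule and block, and left out each array in turn.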

Additional observations from a re-analysis of the deposited data

How the results depend on the processing

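The counts of genes past limma's threshold, 0 higher and 0 lower in chief cells, were also 0 and 0 under repeated quantile normalization, median centring, a filter on dim genes, eBayes with trend and robust, array weights, the 5 sorted arrays alone, the mean of a gene's probesets and every probeset. All 13 arrays gave 103 higher and 77 lower. Leaving out 1 array at a time gave 0 to 909 higher and 0 to 409 lower, and chief c was the array behind both upper values. In alternatives added after seeing the data, leaving out chief c together with median centring gave 735 and 420, with the sorted arrays alone 854 and 316, and with trend and robust 910 and 460. The replicate letter as a block, which drops chief c, gave 971 and 687. The labels do not say that letters pair the pools, only 2 letters are shared, and the deviations of same-lettered chief and parietal arrays correlated at 0.263 and 0.111, so the letters were taken as names. Of 116 named genes 0 changed sign under any alternative, 89 passed the threshold without chief c, 94 with the block and 34 with all 13 arrays. Most of them were named for having no overlap or for passing without chief c. The 0 sign changes and the 89 passes thus follow in large part from how the genes were named. The median SD within a group was 0.274 over the 3 chief arrays, 0.212 over chief a and b and 0.127 over the parietal arrays. With so few arrays, a gene that missed the threshold is not shown to be equal in the 2 cell types.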
